A study of Danio rerio with 3 samples.

Results

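Translation initiation and elongation factors were described in single cells of the larval zebrafish retina. The members are all genes whose symbol starts with eif or eef and a digit, without the kinases that phosphorylate such factors, and with at least 20 unique molecular identifiers (UMIs, each standing for 1 captured RNA molecule) over the 3 deposited matrices together. Of 81 symbols that matched, 4 kinases (eef2k, eif2ak1, eif2ak2 and eif2ak3) and 3 rare genes (eif3bb with 11 UMIs, eif4e1b with 6 and eef1a2 with 4) were left out, which left 74 of 27773 genes. The rarest member kept was eef2a.2, with 63 UMIs. The most abundant was eef1a1l1, with 1130236 UMIs.

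Translation starts when eIF2 brings the initiator tRNA to the small ribosomal subunit, held open by eIF1, eIF1A and the large scaffold eIF3. The cap-binding protein eIF4E, the scaffold eIF4G and the helicase eIF4A then load that subunit onto the messenger RNA, and eIF4E-binding proteins (4E-BPs) block this step by occupying eIF4E until the mTOR kinase phosphorylates them. In elongation eEF1A delivers each aminoacyl-tRNA, eEF1B recharges eEF1A with GTP, eEF2 moves the ribosome along by a codon, and eIF5A helps the ribosome through stretches that are slow to form peptide bonds. Many of these mRNAs, like those of ribosomal proteins, begin with a terminal oligopyrimidine tract in vertebrates, which ties their own translation to mTOR.

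Every larva carried the reporters her4.1:dRFP and gfap:GFP and was bathed in 10 mM metronidazole for 48 h from 6 days after fertilization, and retinae were dissociated at 9 days, 3 days after injury, and sorted for Gfap reporter fluorescence. In the Lws2-ablation library an additional lws2:nfsb-mCherry transgene put nitroreductase, which turns metronidazole into a toxin, into long wavelength-sensitive cones. In the library labelled Sws2-ablation the sws2 promoter drove it in short wavelength-sensitive cones, and the no ablation library carried neither transgene. Each condition was 1 library, so no test between conditions was possible, intervals cover counting error only, and p-values are not given. A GFP signal that persists in the progeny of glia lets the sort take up their neuronal daughters as well.

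After quality filters 10430 Lws2-ablation, 7851 Sws2-ablation and 8190 no ablation cells remained, with 74215043, 51943376 and 41397211 UMIs and a median of 5905, 5034 and 4390.5 UMIs per cell. Members made up 2.34%, 2.18% and 1.98% of these UMIs. Between 17 and 29 cell barcodes were shared by any pair of libraries. EGFP was detected in 51.1% of Lws2-ablation cells and 68.1% of no ablation cells, against 0.51% of cells in the library labelled Sws2-ablation, although its line carries gfap:GFP, and both kit versions v2 and v3 are named for the study, so kit, line and condition cannot be told apart.

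Cells were clustered without the members and without ribosomal protein genes, and clusters were named from marker lists. This gave 3763 transitional glia (clusters led by tjp2b and by igfbp5b, with her12), 4088 cycling cells (led by rrm2, mcm2, mcm4 or kpna2), 1415 neurogenic precursors, 6588 neurons (982 of the photoreceptor lineage, 3307 bipolar, 2299 amacrine and other inner retinal cells) and 10008 resting glia. The summed markers did not go with the class name throughout. The 10 transitional glia markers summed to 59540, 40100 and 58990 CPM (UMIs of a gene scaled to a total of 1000000 UMIs) in transitional glia of the Lws2-ablation, Sws2-ablation and no ablation libraries, against 38370, 48500 and 47340 CPM in resting glia, so that in the library labelled Sws2-ablation they were lower in the class named for them. In Lws2-ablation precursors the 16 amacrine and inner retinal markers (2967 CPM) exceeded the 12 precursor markers (2405 CPM). Summed over 14 markers, resting glia genes reached 9944, 6656 and 22720 CPM in transitional glia, against 49030, 36660 and 60960 CPM in resting glia. Cluster 0 of the resting glia (2722 cells) is led by the interferon gene ifi45, followed by rgs5b, c7b, cxcl18b and cd99. Cluster 4 of the resting glia has a median depth of 0.435 times that of its libraries. Values below are CPM of UMIs summed over the cells of a class in 1 library. A UMI counts a molecule by its 3′ end, so no correction for gene length was made. How well each gene is captured was not measured, so levels, shares and ratios between genes are uncertain to that extent. Ratios are log2 with 1 CPM added to both sides, and a member is counted as higher or lower where it passed 1.5-fold in the same direction in all 3 libraries. Close paralogues may lose reads to each other, so values of single eef1a, eef2, eef1d, eif4a1 and eif5a genes are uncertain to that extent.

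Among the named classes, cycling cells held the largest share of translation factor RNA in each library, with neurogenic precursors close. Members took 2.79%, 2.53% and 3.01% of UMIs in cycling cells of the Lws2-ablation, Sws2-ablation and no ablation libraries, against 1.74%, 1.80% and 1.74% in resting glia, and the ranges did not overlap. In precursors they took 2.71%, 2.33% and 2.75%, which overlapped the cycling range. Over all libraries cycling cluster 11 stood at 3.00%. Cycling clusters 5, 9 and 18 were at 2.63%, 2.64% and 2.56%, beside 2.67% in precursor cluster 10 and 2.64% in transitional cluster 8. Of 72 members tested, 20 were at least 1.5-fold higher in cycling cells and 8 were lower, where 13.5% of all 12237 genes tested were higher and 30.2% were lower. The median member ratio was 0.51 on the log2 scale, while that over all genes was -0.34. The higher genes were spread over elongation and initiation: 3 of 5 eEF1B and eef1e1 genes, both eIF5A genes, 2 of 3 eEF2 genes, 6 of 16 eIF3 subunits and 3 of 11 genes of eIF2, eIF2A, eIF2D and eIF2B.

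Genes of elongation and of initiation headed the higher list, with eif5a, eef1b2, eif3ea and eif3ba at the top. eif5a, the precursor of the hypusinated factor, reached 528.8, 541.6 and 652.2 CPM in cycling cells of the Lws2-ablation, Sws2-ablation and no ablation libraries, against 174.7, 230.2 and 199.4 CPM in resting glia. The mean log2 ratio was 1.51 ± 0.25 (SD, n = 3 libraries). eef1b2, the nucleotide exchange subunit of eEF1B, had 2179.9, 2322.6 and 1978.6 CPM in cycling cells, against 889.1, 1073 and 602.9 CPM in resting glia, a log2 ratio of 1.37 ± 0.31. All cycling values of both genes lay above all resting values. eef1g, the structural subunit of eEF1B, was at 2858, 2778 and 2995.9 CPM, against 1111.8, 1353.3 and 1150.1 CPM in resting glia (1.26 ± 0.19). eef1a1l1, the main eEF1A gene, did not pass in the library labelled Sws2-ablation and had 8990, 7232.1 and 10058 CPM in cycling cells, against 5192.8, 4946.8 and 4891.7 CPM in resting glia.

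Among initiation factors, eif3ea, an eIF3 subunit, had 649.6, 586.3 and 620.8 CPM in cycling cells, against 234.8, 280.6 and 214.6 CPM in resting glia (1.35 ± 0.25), and eif3ba, the subunit that scaffolds the core, had 534.5, 377.2 and 477.3 CPM, against 184.1, 162.7 and 220.1 CPM (1.28 ± 0.22). The cycling and resting values of both genes did not overlap. eif2a, a factor that can deliver tRNA without eIF2, was at 43.8, 38.3 and 44.7 CPM in cycling cells, against 18, 19.7 and 20.9 CPM in resting glia. eif4e1c, a cap-binding eIF4E gene, passed 1.5-fold in both ablation libraries but not in the no ablation library, with 114.1, 77.6 and 104.2 CPM in cycling cells, against 45.3, 44.8 and 71 CPM in resting glia.

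The 8 members lower in cycling cells held the 4E-BP genes eif4ebp3 (32.4, 58.3 and 66.5 CPM in cycling cells, against 84.1, 159.6 and 180.1 CPM in resting glia) and eif4ebp2 (76.8, 40.7 and 99.5 CPM, against 195.1, 124.3 and 236.6 CPM). Their mean log2 ratios were -1.40 ± 0.05 and -1.39 ± 0.18. The rare eef2l2 (-1.75) and eef1a1a (-1.48) were lowest, and eif4a2, eif4ba, eif4e2 and eif1b made up the rest. In cycling cells eef2l2 had only 2.15, 1.63 and 6.50 CPM and eef1a1a 2.23, 0.919 and 1.79 CPM, near the 1 CPM added to ratios. When UMIs were set per cell and not relative to the total, 0 of the 8 passed 1.5-fold as lower, where 11% of all genes did. eif4ba, eif4e2 and eif1b were then higher in cycling cells, at 0.18, 0.18 and 0.32 on the log2 scale, and eif4ebp3, eif4ebp2 and eif4a2 were at -0.266, -0.245 and -0.10. Cycling cells held a median of 12256, 11891 and 10900 UMIs, against 6200.5, 5090.5 and 4626 UMIs in resting glia. With cells thinned to 1000 UMIs the median member ratio was 0.49. Then 17 members were higher, 15 of them among the 20, and 5 lower, all among the 8, where 12.9% and 27.7% of all genes were. Beyond this, the part of the depth in the results was not tested.

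**Figure D1:**
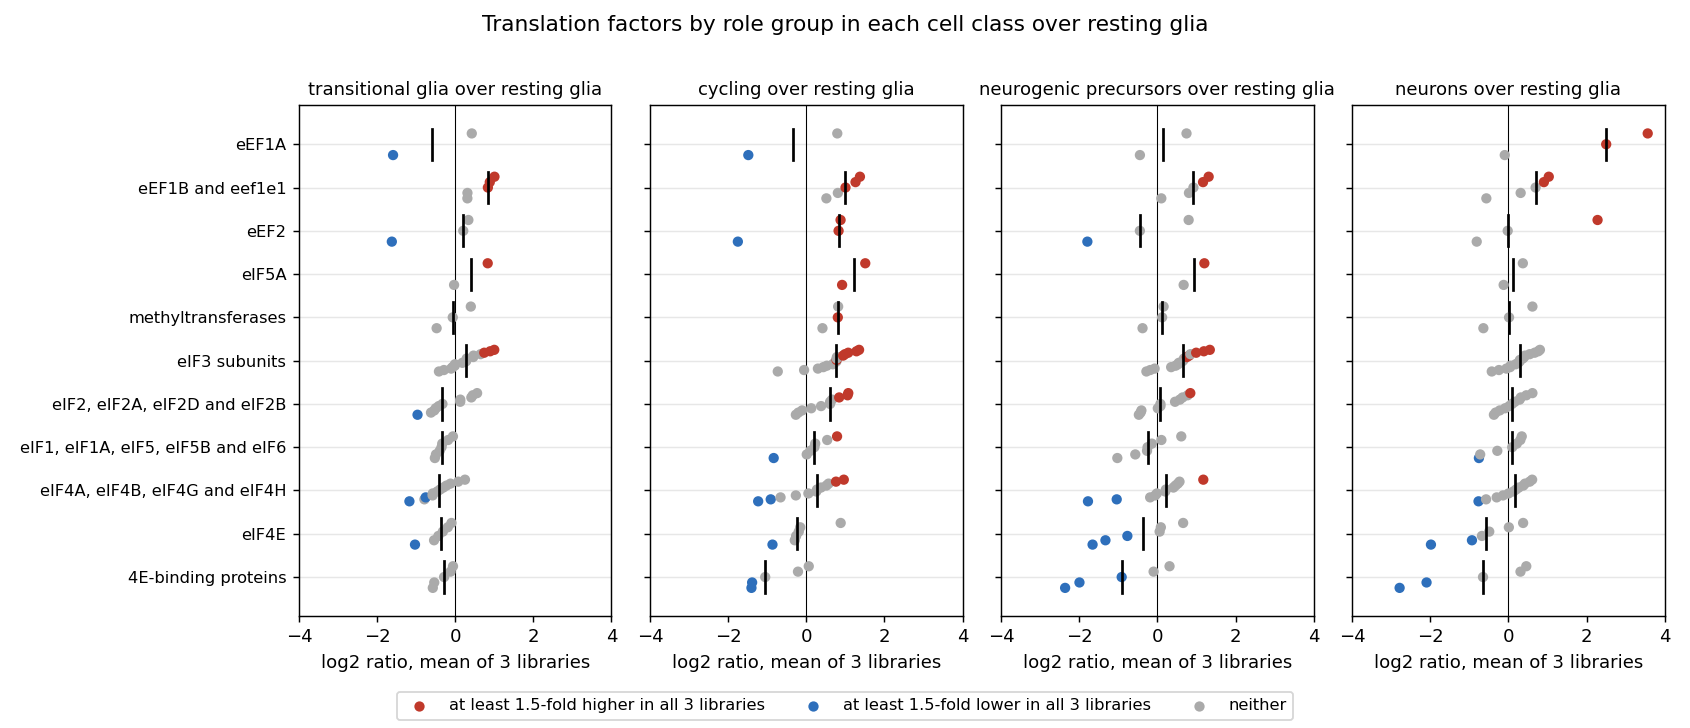
Mean log2 ratio of each translation factor over the 3 libraries (x axis) for transitional glia, cycling cells, neurogenic precursors and neurons over resting glia, 1 row per role group (points are genes, black bars are group medians, red and blue points passed 1.5-fold in every library). The row of eEF1B and eef1e1 lies to the right of 0 in cycling cells with a median of 1.00. That median is the value of eef1e1, which had only 9.16, 6.69 and 4.06 CPM there. The row of 4E-binding proteins holds the 4E-BP genes and also eif4enif1, which the 4E-BP sums in the text leave out. In cycling cells that row lies on both sides of 0 with a median of -1.05, which is 0.10 when UMIs are set per cell.

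Of 83 ribosomal protein genes, a list given for comparison, 76 were higher in cycling cells (13.5% of all genes were), 70 in transitional glia (3.62%) and 65 in neurogenic precursors (11.5%), with 0 lower in each. They took 38.7%, 47.4% and 38.3% of UMIs in cycling cells, against 17.6%, 25.8% and 14.5% in resting glia. Of 15 ribosome biogenesis genes, 10 were higher in cycling cells, against 0 higher and 2 lower in transitional glia. Of 6 termination and recycling genes 2 were higher and 0 lower in cycling cells, of 9 poly(A) binding genes 0 were higher and 1 lower, and of 12 upstream kinases 1 was higher and 2 lower.

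Members took 2.44%, 2.20% and 2.12% of UMIs in transitional glia, against 1.74%, 1.80% and 1.74% in resting glia. Of 72 members tested 7 were higher, where 3.62% of 11612 genes were, and 6 were lower, where 13.8% of genes were. The median was -0.11, against -0.24 over all genes, and it turned positive when ribosomal protein, member and mitochondrial genes were taken out of the denominator. The 7 higher genes were eef1g, eef1b2, eef1da, eif3ea, eif3m, eif3i and eif5a: 3 eEF1B subunits, 3 eIF3 subunits and eIF5A. The lower count was 10 without the Lws2-ablation library, where 17.3% of all genes were lower. It was 0 when all genes, members included, were used as clustering features, where 10.6% of all genes were lower.

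eef1b2 had 1740.4, 1881.4 and 1108.3 CPM in transitional glia of the Lws2-ablation, Sws2-ablation and no ablation libraries, beside the resting values given above, a log2 ratio of 0.89 ± 0.08. eef1da, the exchange subunit eEF1D, had 554.3, 764.1 and 607.8 CPM in transitional glia, against 315.1, 443.9 and 322.1 CPM in resting glia (0.84 ± 0.07). eif3m, a small eIF3 subunit, had 494.8, 493 and 442.9 CPM, against 236.7, 277.4 and 254.8 CPM (0.89 ± 0.14). For these genes the ratio held within a narrow band in each library. The 6 lower genes were eef2l2 (-1.62), eef1a1a (-1.59), eif4g2a (-1.17), eif4e1c (-1.03), eif2b1 (-0.96) and eif4a2 (-0.76). In transitional glia eef2l2 had only 3.00, 2.24 and 5.28 CPM and eef1a1a 1.70, 0.499 and 2.42 CPM. With 10 CPM added to ratios, 1 of the 6 was still counted as lower, where 6.11% of all genes were. eif4g2a, which resembles a noncanonical eIF4G of mammals, had only 11.5, 5.24 and 6.82 CPM in transitional glia, against 19.8, 13.1 and 22.8 CPM in resting glia. eif4e1c had 28.6, 18.1 and 30.8 CPM in transitional glia, which lay under every resting value.

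The transitional clusters differed from each other. Cluster 8 (led by igfbp5b and cyp24a1) over cluster 1 (tjp2b, cldn5b) had 9 of 66 members higher, where 2.31% of 7962 genes were higher, and 6 lower, where 27.6% were. eef1b2 reached 2370.3, 2394 and 1744.3 CPM in cluster 8, against 1255.4, 1200.4 and 843.5 CPM in cluster 1 (0.99 ± 0.07). eif3ea (0.97 ± 0.21) and eif5a (0.95 ± 0.19) followed. Ribosomal proteins took 47.3%, 56.1% and 42.4% of UMIs in cluster 8, against 26.3%, 33.5% and 19.5% in cluster 1. The 6 lower genes were eif4g3a, eif4ebp2, eif4e1c, eif4ba, eif4e2 and eef1akmt2.

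**Figure D2:**
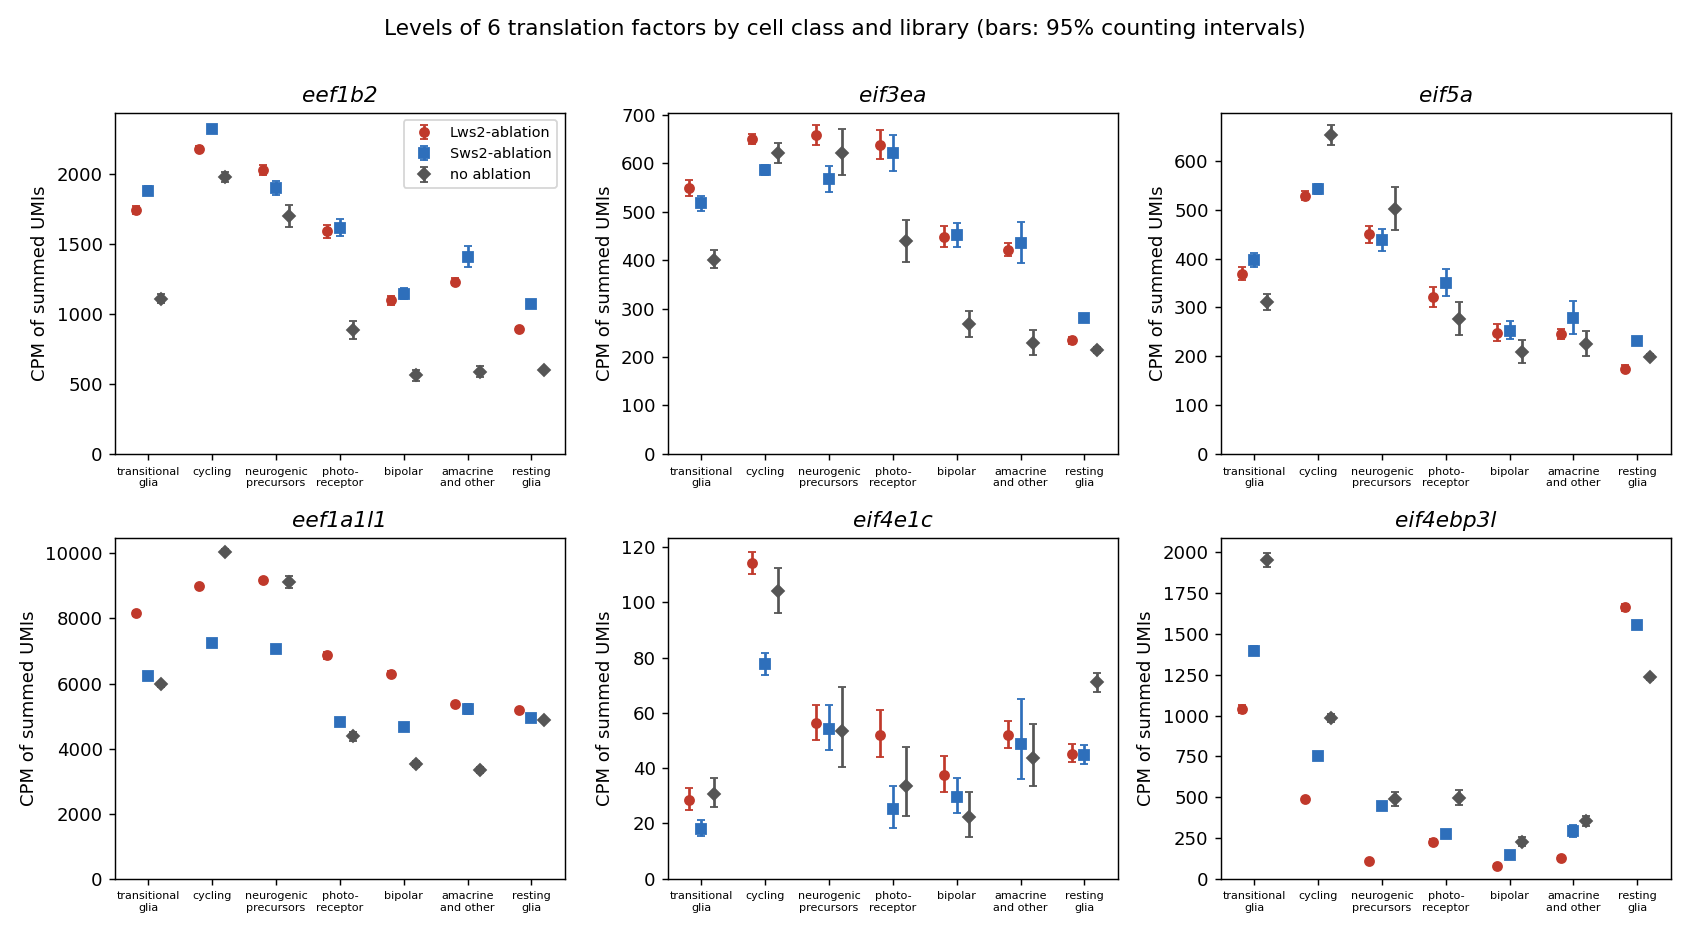
CPM of 6 translation factors (y axes from 0) by cell class (x axes), with circles for Lws2-ablation, squares for Sws2-ablation and diamonds for no ablation and bars for 95% Poisson intervals of the sums. eef1b2, eif5a and eef1a1l1 peak in cycling cells or precursors, as does eif3ea except in Sws2-ablation, where the photoreceptor lineage has 620.4 CPM, while eif4e1c peaks in cycling cells and eif4ebp3l in glia.

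In neurogenic precursors the share of members higher than in resting glia was close to that of all genes. Of 72 members 10 (13.9%) were higher and 9 (12.5%) lower, where 11.5% and 27.8% of 11422 genes were. eif3ea (1.34 ± 0.29), eef1g (1.31 ± 0.23), eif5a (1.203 ± 0.24), eif3m (1.19 ± 0.20) and eif4g2a (1.18 ± 0.47) headed the list. The lower genes were eif4ebp3l, eif4ebp3, eef2l2, eif4a2, eif4e2, eif4eb, eif4ba, eif4ebp2 and eif4ea. eif4g2a had 62.5, 32.1 and 37.2 CPM in precursors and 47.4, 35.4 and 28.8 CPM in amacrine and other inner retinal cells, against 19.8, 13.1 and 22.8 CPM in resting glia. Within the precursors it was at 79.1 CPM in cluster 16 and 33.1 CPM in cluster 10. Of the no ablation precursors there were only 157 cells, and 24 of them came from cluster 16, which supplied 305 Lws2-ablation cells.

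The summed level of the 4E-BP genes was highest in transitional or resting glia of each library, and eif4ebp3l made up most of that sum. It had 1040.4, 1398.7 and 1953 CPM in transitional glia, 485.3, 750.6 and 983.1 CPM in cycling cells, 107.2, 446.4 and 486 CPM in neurogenic precursors and 134.6, 210.3 and 339.1 CPM in neurons, against 1663.5, 1557.2 and 1234.6 CPM in resting glia. Neurons and precursors were below resting glia in every library, with log2 ratios of -2.79 ± 0.88 and -2.36 ± 1.39. In transitional glia the order over resting glia was not the same in all libraries: the log2 ratio was -0.68 in the Lws2-ablation library and 0.66 in the no ablation library. Cluster 8, where eif4ebp3l was at 1067 CPM over all libraries, made up 489 of 1245 Lws2-ablation, 681 of 1435 Sws2-ablation and 258 of 1083 no ablation transitional cells. In cluster 1, which held the rest, the gene was at 1658 CPM. The part of this mixture in the result was not tested. Not all 4E-BPs were highest in glia: eif4ebp1 had 215.3, 201.9 and 262.1 CPM in bipolar cells, above every resting value (130.5, 150.7 and 121.2 CPM), and eif4ebp2 had 281.5 CPM in no ablation amacrine and other inner retinal cells, against 236.6 CPM in resting glia of that library. eif4ebp3l took 20% to 34.9% of 4E-BP UMIs in bipolar cells, against 69.7% to 80.2% in resting glia.

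The eIF4E genes summed here are eif4e1c, eif4e2rs1, eif4e3, eif4ea, eif4eb and eif4e2, and their mixture differed between classes. eif4e2rs1 was 22.6% to 26.1% of their UMIs in cycling cells and 36% to 41.5% in neurons, against 28.65% to 35.25% in resting glia. Which of these proteins the 4E-BPs bind was not measured. The sum of 4E-BP UMIs per eIF4E UMI differed between the classes in each library. It was 9.28, 16.3 and 19.3 in transitional glia, 3.11, 5.76 and 6.19 in cycling cells, 2.02, 3.80 and 4.70 in precursors and 2.64, 3.52 and 5.73 in neurons, against 12, 11.7 and 9.09 in resting glia. In cycling cells, precursors and neurons all 3 libraries lay under all resting values, and in transitional glia they overlapped them. The ratio stood highest in the no ablation library in all classes but resting glia, where it stood lowest. The sum of the 14 resting glia markers was also highest in that library in every class. In the order Lws2-ablation, Sws2-ablation and no ablation it was 2671, 2469 and 6020 CPM in cycling cells and 1529, 1621 and 3659 CPM in precursors. In bipolar cells it was 1713, 1326 and 4095 CPM. The part of these glial transcripts in the 4E-BP levels and ratios outside glia was not tested.

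**Figure D3:**
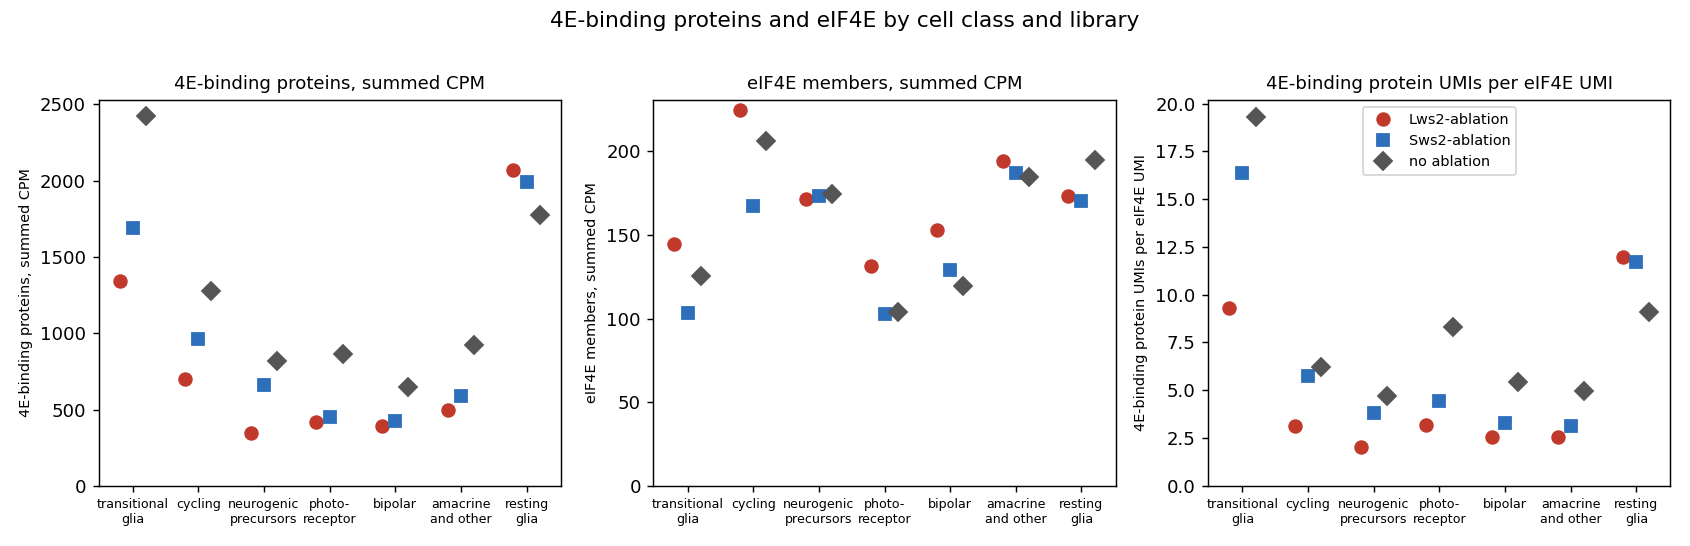
Summed CPM of 4E-binding proteins (the eif4ebp genes, without eif4enif1), summed CPM of eIF4E genes and the ratio of their UMIs (y axes from 0) by cell class (x axes), by library (circles Lws2-ablation, squares Sws2-ablation, diamonds no ablation). The ratio is 2.02 to 4.70 in neurogenic precursors and 9.09 to 12 in resting glia.

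Among the factors that prepare the small subunit, eif1b, an eIF1 gene, had 755.1, 583 and 838.7 CPM in transitional glia, 483.7, 370.7 and 529.3 CPM in cycling cells and 981.1, 781.9 and 1098.9 CPM in neurons, against 881.7, 721.1 and 849.7 CPM in resting glia. The cycling values lay under all resting values (-0.83 ± 0.14), although the gene was higher there when UMIs were set per cell, and the neuron values overlapped the resting ones. Within each library the CPM of eif1b was higher in neurons than in resting glia, without passing 1.5-fold. eif2s1b, which codes for the alpha subunit of eIF2, had 236.1, 298 and 260.2 CPM in cycling cells, against 103.8, 152.2 and 127.2 CPM in resting glia (1.06 ± 0.11). eif2s3, the subunit of eIF2 that binds the tRNA, had 383.5, 390.4 and 437.8 CPM in transitional glia and 374.2, 375.5 and 434.4 CPM in cycling cells, against 261.4, 304.2 and 348.7 CPM in resting glia, and passed 1.5-fold in all libraries in neither class. eif3f, the most abundant eIF3 gene in cycling cells and resting glia of each library, had 746, 767.3 and 682.1 CPM in cycling cells, against 435.1, 563.6 and 351.6 CPM in resting glia, and did not pass in the library labelled Sws2-ablation. The helicase gene eif4a1b had 270.6, 257.2 and 311.8 CPM in cycling cells, against 274.8, 261.8 and 269.7 CPM in resting glia (0.05 ± 0.13).

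Of the other cap-binding genes, eif4e2rs1 had 46.5, 38.4 and 41.1 CPM in transitional glia and 51.7, 43.6 and 46.7 CPM in cycling cells, against 54.6, 60 and 55.9 CPM in resting glia. Both classes lay under all resting values without passing 1.5-fold in all libraries. eif4ea had 8.79, 9.38 and 7.65 CPM in neurons, against 16.9, 17.4 and 17.7 CPM in resting glia. eif4eb had 2.46, 1.06 and 3.43 CPM in neurons, against 10.4, 8.69 and 16.8 CPM in resting glia, and the neuron values of both genes lay under all their resting values. eif4ebp1, a 4E-BP, had 103.8, 113.3 and 129.6 CPM in cycling cells and 170.8, 165.5 and 218.8 CPM in neurons, against 130.5, 150.7 and 121.2 CPM in resting glia, and was counted as neither higher nor lower in these classes. eef1akmt2, a methyltransferase gene, had 15.4, 17.9 and 23.4 CPM in cycling cells, against 11.1, 10.9 and 8.69 CPM in resting glia, ranges that did not overlap.

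In neurons few members passed 1.5-fold against resting glia, and only some paralogues among them stood far above or below it. Of 73 tested, 5 were higher and 6 lower, where 21.7% and 18.3% of 12424 genes were, and the medians of members and of all genes were 0.16 and 0.17. Without the no ablation library 9 were higher, where 24.3% of all genes were. eef1a1a, another eEF1A gene, had 74, 55.8 and 145.9 CPM in neurons of the Lws2-ablation, Sws2-ablation and no ablation libraries, against 7.33, 3.26 and 9.66 CPM in resting glia (3.56 ± 0.34). eef1a1l2, a further eEF1A gene, had 11.6, 6.37 and 22.2 CPM, against 1.44, 0.679 and 1.89 CPM (2.50 ± 0.45). The neuron classes differed for eef1a1l2, with only 1.05, 0 and 1.08 CPM in the photoreceptor lineage. It had 18.4, 10.2 and 29.2 CPM in bipolar cells and 12.3, 6.24 and 28.8 CPM in amacrine and other inner retinal cells. eef2l2, an eEF2-like gene, had 53.7, 37.9 and 127.2 CPM, against 9.91, 8.83 and 21.2 CPM (2.28 ± 0.28). The pooled neuron values of none of these genes overlapped their resting values. The others were eef1e1 (1.03), homologous to a part of the mammalian tRNA synthetase complex, and the eEF1B subunit eef1db (0.91). eef1e1 had only 12.1, 5.84 and 3.69 CPM in neurons, against 3.30, 2.78 and 2.015 CPM in resting glia. It was still counted as higher in 1 of the 3 other scalings. The resting values of eef1a1l2 and the neuron values of eif4eb were near the 1 CPM added to ratios. After the 4E-BPs, eif4eb (-1.99), eif4ea (-0.94), eif4a2 (-0.77) and eif6 (-0.76), which keeps ribosomal subunits apart, were lower.

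These paralogues also differed between neuron clusters. Bipolar cluster 7 (cabp5b, nrn1lb, with a median depth 0.261 times that of its libraries) was set against bipolar cluster 6 (vsx1, gnb3a, 0.518 times). eef1a1a had 195.3, 216.4 and 219.2 CPM in cluster 7, against 18.7, 12.5 and 32.2 CPM in cluster 6 (3.35 ± 0.64). eef1a1l1 went the other way, with 1479, 1737.3 and 943.2 CPM in cluster 7, against 7987.5, 5526.2 and 4730.2 CPM in cluster 6 (-2.14 ± 0.41). Of 59 members tested 6 were higher, where 24.8% of 5009 genes were, and 19 lower, where 10.5% were. eef2l2 was higher (4.36 ± 0.35) and eef2b, the main eEF2 gene, lower (-1.91 ± 0.34), and 10 of the 19 lower genes were eIF3 subunits. Over all libraries ribosomal proteins took 12.1% of UMIs in cluster 7, against 31.5% in cluster 6.

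Photoreceptor cluster 17, whose leading genes opn1lw2 and arr3a belong to cones, over cluster 14 (tmem244) had eef2l2 (2.15 ± 0.26) and eef1a1a (1.65 ± 0.32) higher and 10 of 55 members lower, where 13.5% of 3746 genes were higher and 8.89% lower. Over all libraries ribosomal proteins took 20.1% of UMIs in cluster 17, against 41.9% in cluster 14. Median depth was 0.552 and 1.13 times that of their libraries. Inner retinal cluster 12 (scg2b) over cluster 13 (tfap2b), compared in the Lws2-ablation and no ablation libraries since cluster 12 held 9 Sws2-ablation cells, had eef1a1a at 144.6 and 181.9 CPM in cluster 12, against 15.7 and 29.3 CPM in cluster 13. There 6 of 55 members were higher, where 28.1% of 4298 genes were, and 12 were lower, where 12.0% were. eef1a1l1 had 3657.5 and 2262.5 CPM in cluster 12, against 7166.7 and 6916.5 CPM in cluster 13. Ribosomal proteins took 18.7% and 13.7% of UMIs in cluster 12, against 28.8% and 23.3% in cluster 13. Median depth was 0.577 times that of its libraries in cluster 12 and 0.936 times in cluster 13. The part of depth and of the ribosomal share in the ratios between neuron clusters was not tested.

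**Figure D4:**
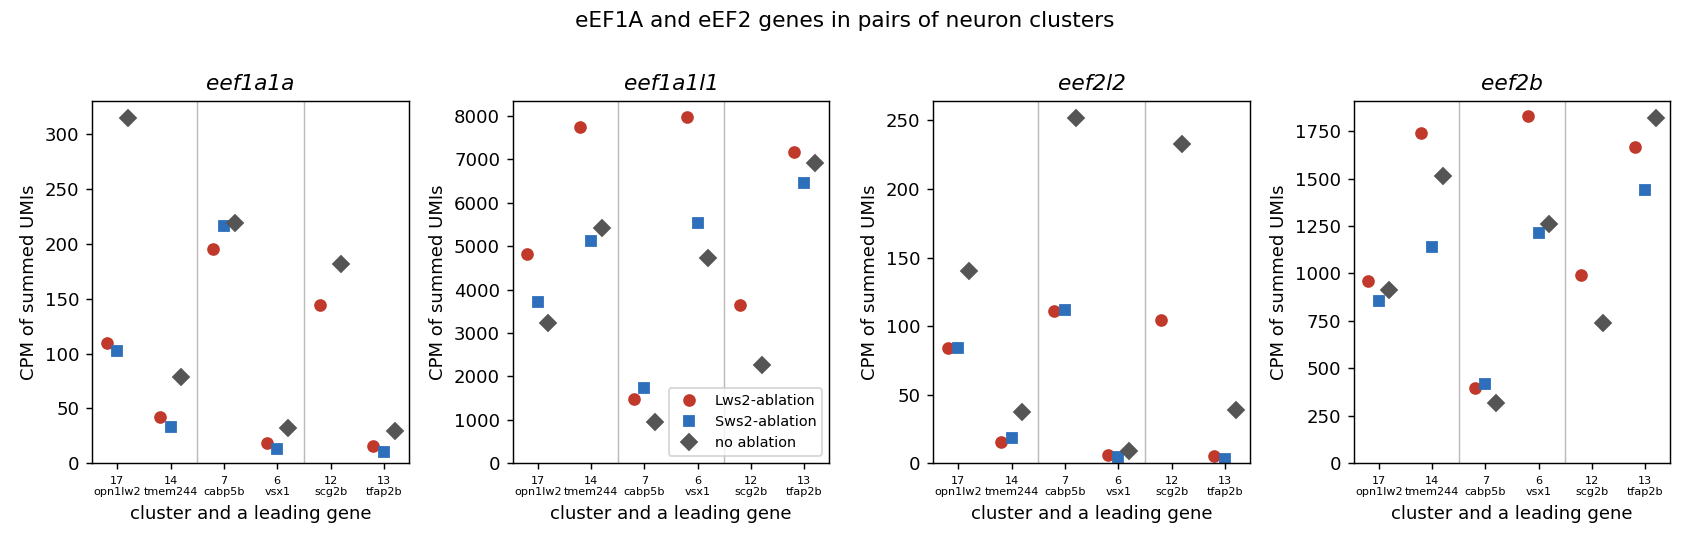
CPM of eef1a1a, eef1a1l1, eef2l2 and eef2b (y axes from 0) in 3 pairs of neuron clusters (x axes: photoreceptor 17 and 14, bipolar 7 and 6, inner retinal 12 and 13), by library. eef1a1a and eef2l2 are higher, and eef1a1l1 and eef2b lower, in the first cluster of each pair.

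Over the 23 clusters given the name of a retinal class, 26 members, eef1a1l1 included, had a rank correlation above 0.5 with eef1a1l1 and 11 had one under -0.5, among them eif4ba (-0.855), eef2l2 (-0.84), eif4a2 (-0.741) and eef1a1a (-0.727). The most like it were eef2b (0.982), eef1b2 (0.954) and eif5a (0.939). These clusters share libraries, and the part of their UMIs taken by ribosomal proteins ran from 8.95% in cluster 23 to 53.8% in cluster 11. With that ribosomal share eef1a1l1 itself had a rank correlation of 0.91. The counts above 0.5 and under -0.5 were not made over all genes, so whether they are particular to members was not tested.

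The share taken by each of a pair of paralogues differed between some classes and overlapped between others. eef1da was 64.1% to 75.6% of eef1d UMIs in transitional glia, 28.6% to 37.7% in bipolar cells and 17% to 30.6% in amacrine and other inner retinal cells, against 58.1% to 67.7% in resting glia, which overlapped transitional glia alone among these. Within each library the eef1da share was nevertheless higher in transitional than in resting glia. eif5a2 was 21.4% to 37.1% of eif5a UMIs in transitional glia and 30.3% to 40.7% in cycling cells, against 38.5% to 52.5% in resting glia, which overlapped the cycling range. Within each library the eif5a2 share was nevertheless lower in cycling cells than in resting glia. eif4a1a was 46.6% to 56.7% of UMIs of eif4a1 and eif4a2 in cycling cells, against 31.5% to 43.6% in resting glia.

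Between libraries the members were compared in resting glia, where the cells were most numerous. Of 73 members tested, 2 were at least 1.5-fold higher in the Lws2-ablation than the no ablation library with an interval clear of 1, and 11 were lower, where 24.2% and 9.35% of 13780 genes were. For the library labelled Sws2-ablation over no ablation 6 were higher and 11 lower, where 21.2% and 16.8% of 13505 genes were. Lws2-ablation over Sws2-ablation had 3 higher and 2 lower, where 12.7% and 3.90% of 13713 genes were. The first pair of comparisons shares the no ablation library. The median over all genes was 0.18 in the first comparison, 0.04 in the next and 0.13 in the last, while the median member was at -0.21, -0.04 and -0.12. With UMIs set per cell all 3 member medians were positive (0.16, 0.17 and 0.040), and that of Sws2-ablation over no ablation was also positive with a reduced denominator (0.19, without members, ribosomal protein and mitochondrial genes) and with cells thinned to 1000 UMIs (0.032).

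eif4a2, a paralogue of the helicase eIF4A, was lowest in both ablation libraries. It had 64.6 CPM in Lws2-ablation and 69.4 CPM in Sws2-ablation resting glia, against 184.6 CPM in no ablation resting glia. The log2 ratios were -1.50 (interval -1.60 to -1.41) and -1.40 (-1.50 to -1.30), and in each of the 6 resting clusters the ratio passed 1.5-fold in both. It was also lower in both libraries in every other class tested, such as bipolar cells (-1.52 and -1.46) and cycling cells (-1.51 and -1.11). eif4a1a, the main helicase gene beside eif4a1b, had 231.5 CPM in Lws2-ablation and 152.2 CPM in Sws2-ablation, against 351.5 CPM in no ablation resting glia. Those ratios were -0.60 and -1.202.

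eif4ebp3 had 84.1 CPM in Lws2-ablation resting glia, against 180.1 CPM in no ablation resting glia (-1.09), and was lower in all 6 resting clusters. In the library labelled Sws2-ablation it had 159.6 CPM. eif4ebp2 showed the opposite split, with 195.1 CPM in Lws2-ablation and 124.3 CPM in Sws2-ablation, against 236.6 CPM in no ablation resting glia. The eEF1B gene eef1b2 (0.83), eef1db (0.84), eif3f (0.68) and eif3i (0.67) were higher in Sws2-ablation over no ablation, and 76 of 84 ribosomal protein genes were higher there too. Within the 6 resting clusters eef1b2 passed 1.5-fold in 4, eef1db and eif3i in 3 and eif3f in 2. Cluster 4, of low depth, with eef1b2 at 1410 CPM over all libraries against 560.8 CPM in cluster 3, made up 877 of 2580 Sws2-ablation and 503 of 4826 no ablation resting cells. Without it the 6 higher members became 4, where 23.9% of all genes were higher. eif4e3, a divergent cap-binding gene, was higher in both (past 1.5-fold in 5 and in 3 of the 6 clusters), with 35 CPM in Lws2-ablation and 27 CPM in Sws2-ablation, against 17.3 CPM in no ablation resting glia.

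**Figure D5:**
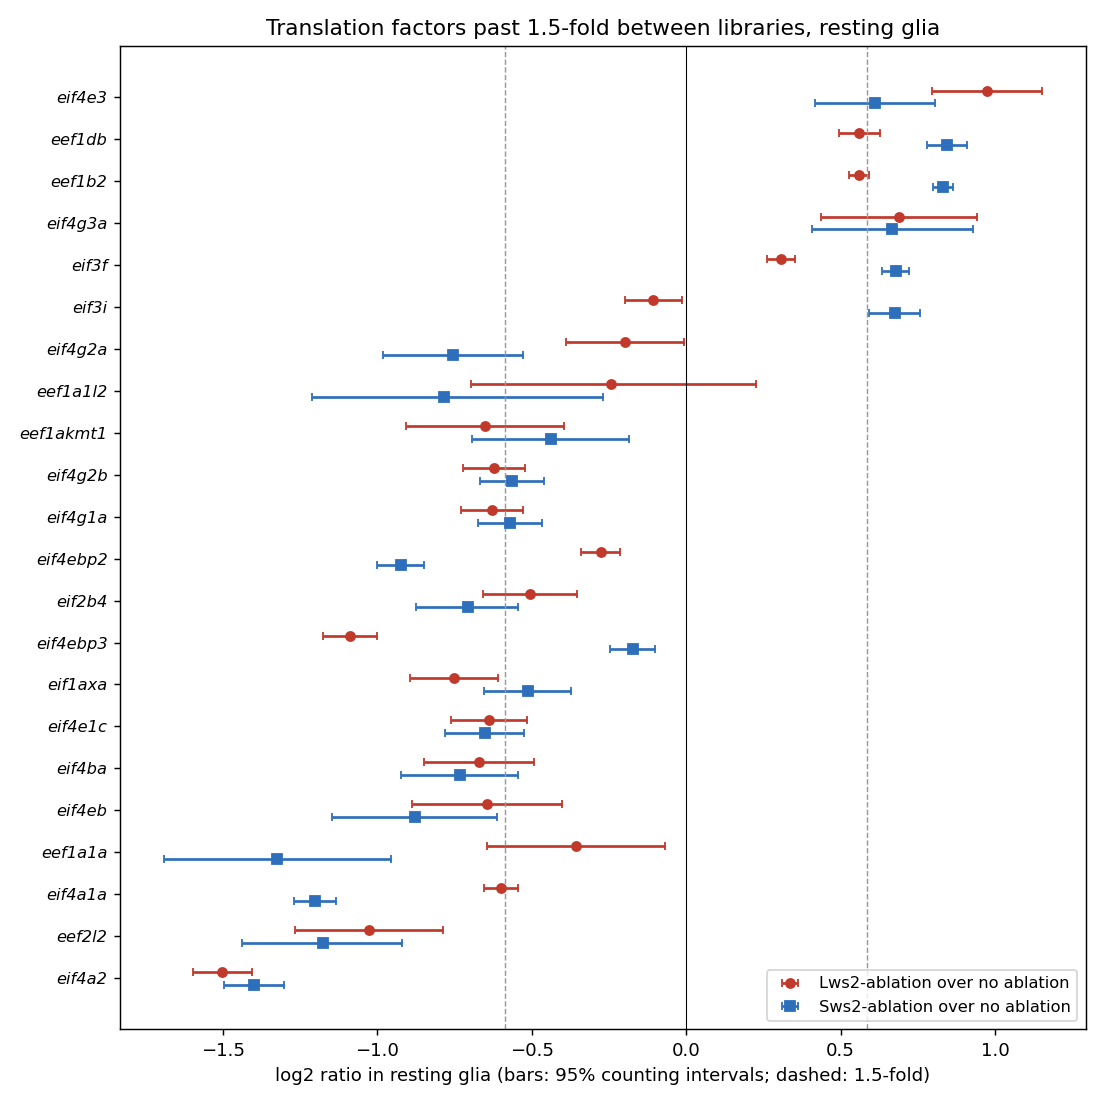
log2 ratio in resting glia (x axis) of the 22 members that passed 1.5-fold in Lws2-ablation or Sws2-ablation over no ablation (rows), with 95% counting intervals as bars and dashed lines at 1.5-fold. eif4a2 lies at -1.50 and -1.40 and eif4e3 at 0.97 and 0.61.

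Markers of other cells stood beside these results. In resting glia the 16 inner retinal neuron markers summed to 273.5 CPM in Lws2-ablation and 169.4 CPM in Sws2-ablation, against 391.5 CPM in no ablation, and 0 of them were at 0 in any library. In transitional glia they summed to 292.4, 172.3 and 323.9 CPM, while eef1a1a was at 1.70, 0.499 and 2.42 CPM there. The 8 microglia markers summed to 2.74, 1.62 and 0.22 CPM in transitional glia, against 2.22, 0.883 and 1.01 CPM in resting glia. The mitochondrial share was 2.34% in Lws2-ablation and 2.14% in Sws2-ablation resting glia, against 1.34% in no ablation. The 8 stress markers summed to 50770, 37500 and 52440 CPM in resting glia, the reference of the class ratios. They were at 18800, 13480 and 24630 CPM in cycling cells and 25360, 19170 and 38450 CPM in transitional glia. The part of all these in the class and library ratios was not tested. In pooled sums fewer cells of a type and less RNA per cell cannot be told apart.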

How the data were processed

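Each of the 3 libraries came as a matrix of UMI counts per gene and cell barcode. The authors made these deposited counts with Cell Ranger: 2.1.1 and GRCz11 in the submitters' processing notes, 3.0.2 in the matrix headers. Cells with at least 200 genes and at most 4500 (Lws2-ablation), 4000 (Sws2-ablation) or 3500 (no ablation) genes, and at most 35%, 30% or 20% mitochondrial UMIs, were kept. Cells were integrated and clustered in Seurat 5.3.0 (2000 features without members and ribosomal protein genes, 30 dimensions for integration, 15 principal components, resolution 0.8). Doublets marked by Scrublet (scanpy 1.11.5) stayed in the main result, since the automatic threshold marked 139, 0 and 3 cells; 870, 493 and 537 cells were removed in an alternative. Clusters were named from markers, and a stress list was left out of naming after the clusters had been seen. UMIs were summed per class and library, genes with fewer than 20 UMIs in the sums compared were not tested, and 1 CPM was added to ratios. Intervals are exact Poisson at 95%, and describe counting error alone, and no test was run because conditions are not replicated. The method was tested on simulated data. Members and lists were chosen with earlier results of these data known. Genes were named by rule: the 10 with most UMIs, the 4 highest and lowest per class, the 3 highest and lowest per library pair, all eIF4E, 4E-BP and eEF1A genes, and the most abundant gene of each role group. Others were named after their values were seen. No sequences or coordinates are given. Alternatives are listed in the closing section.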

Additional observations from a re-analysis of the deposited data

Results flagged for a closer look

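Differences between classes in the effect of a library were flagged where the effects pointed in opposite ways. None of these differences was tested, since each condition is 1 library, and the neuron classes hold other mixtures of clusters in each library (cluster 12 held 725 Lws2-ablation, 9 Sws2-ablation and 151 no ablation cells), as do the transitional glia (cluster 8 held 489, 681 and 258 cells). The precursors also do so, with 305, 90 and 24 cells in cluster 16. Over all libraries eif4ebp3l was at 69.6 CPM in cluster 16, against 364.8 CPM in precursor cluster 10. For eif4ebp3l the log2 ratio of Lws2-ablation over no ablation was -2.17 in neurogenic precursors and 0.43 in resting glia. Lws2-ablation over Sws2-ablation gave -2.05 in precursors and 0.10 in resting glia for the same gene, and Sws2-ablation over no ablation gave -0.86 in the photoreceptor lineage and 0.33 in resting glia. Its ratio of transitional over resting glia was -0.68 in the Lws2-ablation and 0.66 in the no ablation library.

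For the other genes, Lws2-ablation over no ablation gave 0.84 for eef1a1l1 in bipolar cells and -0.16 in cycling cells. It gave 0.72 for eif4e1c in bipolar cells and -0.64 in resting glia, 0.39 for eif4g1a in bipolar cells and -0.63 in resting glia, and 0.59 for eif4eb in transitional glia and -0.64 in resting glia. Sws2-ablation over no ablation gave 0.65 for eef1a1l1 in amacrine and other inner retinal neurons and -0.48 in cycling cells, 0.63 for eif2b3 in bipolar cells and -0.70 in the photoreceptor lineage, 0.92 for eif3ea in inner retinal neurons and -0.13 in precursors, and 1.098 for eif4ea in inner retinal neurons and -0.49 in cycling cells. Lws2-ablation over Sws2-ablation gave 1.36 for eef2kmt in the photoreceptor lineage and -0.46 in resting glia, 0.32 for eif1axa in transitional glia and -1.11 in inner retinal neurons, and 0.55 for eif4ea in transitional glia and -0.82 in inner retinal neurons.

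Signals were also seen in clusters that no comparison used. eif4ebp3 reached 407.9, 656.6 and 500.9 CPM in unnamed cluster 24 of the Lws2-ablation, Sws2-ablation and no ablation libraries. eif2b2 had 83.5 CPM in unnamed cluster 25 of the Lws2-ablation library, eif4ea 37.3 CPM in its microglia and macrophages, and eif4ba 96.1 CPM in lens cells of the no ablation library.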

How the results depend on the processing

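Of the member medians recomputed under an alternative, 69 kept their direction and moved by less than the spread, 8 moved further and 10 changed sign. The cause of these changes was not tested. For class comparisons the spread was the SD of the medians of the libraries. For library comparisons it was the median margin of the counting intervals of single members, which does not measure how a median of members varies. The median of transitional over resting glia turned positive with a denominator without members, ribosomal protein and mitochondrial genes (0.25), with median of ratios scaling (0.16) and with all genes as clustering features (0.054). That of neurons over resting glia turned negative with median of ratios (-0.016) and per cell (-0.53). In resting glia, Lws2-ablation over no ablation was 0.16 per cell, Sws2-ablation over no ablation 0.19 with the reduced denominator, 0.17 per cell and 0.032 with cells thinned to 1000 UMIs, and Lws2-ablation over Sws2-ablation 0.040 per cell. Cycling over resting glia moved to 1.04, 0.92 and 1.67 (reduced denominator, median of ratios, per cell). In resting glia, Lws2-ablation over no ablation moved to -0.41 (median of ratios) and -0.10 (thinned), and Lws2-ablation over Sws2-ablation to -0.27 (reduced denominator) and -0.25 (median of ratios). Leaving out 1 library gave -0.20 to -0.10 for transitional glia, 0.39 (without Lws2-ablation) to 0.53 for cycling cells and 0.06 to 0.21 for neurons. Per cell, eif1b, eif4ba and eif4e2 were higher in cycling cells (0.32, 0.18 and 0.18).

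Counts of members past 1.5-fold moved as follows. In cycling cells the 20 higher became 43, 38 and 59 under these 3 scalings, where 25%, 21.2% and 42.6% of all genes were higher. The 8 lower became 4, 4 and 0, where 19.9%, 22.3% and 11% of all genes were lower. The lower count was 5 with thinning (27.7% of all genes) or a pseudocount of 10 CPM (16%). In transitional glia the 7 higher became 12 with the reduced denominator (8.27% of all genes) and 4 per cell (2.88%) or thinned (4.04%). The 6 lower became 2 with either of the first scalings (8.42% and 9.32% of all genes). They became 3 thinned (11.2%), at resolution 1.2 (12.6%) or without the ifi45 cluster (14.3%), an alternative added after the data were seen. The count was 1 with the larger pseudocount (6.11%), 0 with all genes as features (10.6%) and 10 without the Lws2-ablation library (17.3%). In neurons the 5 higher became 3 per cell (12.7% of all genes) or at a minimum of 100 UMIs (19.5%). They became 9 without the no ablation library (24.3%). The 6 lower became 20 per cell (32.4% of all genes) and 3 with the larger pseudocount (10.1%). In resting glia, Lws2-ablation over no ablation ranged from 1 to 13 higher (5.57% to 43.3% of all genes) and from 3 to 23 lower (3.55% to 16%). Sws2-ablation over no ablation ranged from 4 to 12 higher (4.92% to 31.2%) and from 4 to 14 lower (7.8% to 22.9%). Lws2-ablation over Sws2-ablation ranged from 1 to 5 higher (3.16% to 21.1%) and from 2 to 8 lower (0.904% to 7.64%). No test between conditions was possible because each condition has 1 library, while each class ratio was taken within its own library. Low counts limit rare members such as eef2a.2 and eif2b5.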
